A study of Mus musculus with 6 samples.

Results

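The proteasome genes of 3T3-L1 adipocytes were examined, chosen as all genes whose annotated symbol reads Psm, a letter from a to g and a number. The rule found 49 genes among 18194 genes with a probe set of their own, and 47 of them were detected, among 12386 detected genes in all. A gene was called detected if its log2 value reached the median of the whole table, 6.55, on at least 1 of 6 arrays. Psma8 and Psmb11 were not detected, with values of at most 5.54 and 5.98. Of the 47, Psmc3ip and Psme3ip1 match the rule by symbol but were placed in none of the subunit, regulator and chaperone classes used here. Without them 45 detected members remain. Psme2 shares its probe set with Psme2b and was not analysed here.

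3T3-L1 is a mouse preadipocyte line that turns into fat cells after hormonal induction. In the second of a pair of experiments, cells received for 5 days ritonavir at 20 µM, an HIV protease inhibitor, together with t10,c12-CLA or c9,t11-CLA, both at 100 µM, or with DMSO at 0.1%. In the first, they received ritonavir at 20 µM, tenofovir at 1 µM, an inhibitor of reverse transcriptase, or ethanol at 0.1%. CLA is conjugated linoleic acid, a fatty acid whose isomers have their double bonds in different places. All groups were cells of the same line kept in insulin, after induction with insulin, isobutylmethylxanthine and dexamethasone. RNA of 4 replicate experiments was pooled for each group and hybridised to 1 Affymetrix array, so no spread between replicates can be given. A difference is the log2 value on the first array minus that on the second, and none was tested.

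The proteasome breaks down proteins that carry ubiquitin. Its 20S core is a barrel of alpha and beta rings, in which 3 beta subunits cut proteins, and a 19S cap with a ring of ATPases and a set of non-ATPase subunits recognises, unfolds and feeds substrates into it. Interferon-inducible immunoproteasome subunits can take the place of the catalytic ones and alter the peptides made for MHC class I, and the PA28 ring can take the place of the cap. In fat cells the proteasome is known to turn over regulators of differentiation, the receptor PPAR gamma among them.

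The arrays were alike in distribution, with medians between 6.54 and 6.56, which the authors' normalization brings about. The 8 adipocyte markers on the array all reached the detection level in every group. Their mean level was 11.5 with t10,c12-CLA, 13.0 with c9,t11-CLA, 12.9 with DMSO, 10.2 with ritonavir alone, 13.7 with tenofovir and 13.7 with ethanol. Preadipocyte and fibroblast markers, 6 of 7 listed, averaged 11.2, 10.8, 10.7, 12.4, 11.3 and 11.4 on the same arrays. Of 7 macrophage and leukocyte markers 3 or 4 reached the level on each array, and the list averaged between 6.07 and 6.66. The leukocyte gene Ptprc lay between 3.89 and 4.15, and the macrophage gene Adgre1 and Itgam stayed under the level on all 6 arrays. Cd68, Cd74 and Csf1r, the last between 7.43 and 7.66, reached it on all 6. Lyz2 reached it with DMSO and ethanol only. DMSO is recorded only in the second experiment and ethanol only in the first, so in comparisons across them vehicle and experiment cannot be told apart. The labels give DMSO for the control alone, so whether the CLA arrays held it too is not known. In CLA against DMSO the fatty acid and a difference in vehicle cannot be told apart. Ethanol, too, is given for the control alone. In ritonavir or tenofovir against ethanol the drug and a difference in vehicle therefore cannot be told apart.

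Upstream sequence is given for 5 members, Psmb9 and Psmb8 because they moved most in the second experiment, Psma1 because it moved most in the first, and Psmb5 and Psmb6 because they encode catalytic subunits and hold a motif. Each is the 250 bases before the annotated start, 5′ to 3′, from RefSeq on GRCm38.p6, and capitals mark a match to TGACNNNGC.
Psmb9 (chr17:34187331-34187580, minus strand): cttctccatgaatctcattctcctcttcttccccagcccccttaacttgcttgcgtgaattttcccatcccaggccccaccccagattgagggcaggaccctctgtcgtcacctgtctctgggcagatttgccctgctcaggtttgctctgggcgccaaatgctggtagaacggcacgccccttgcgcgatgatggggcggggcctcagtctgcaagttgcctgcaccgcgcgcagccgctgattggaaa
Psmb8 (chr17:34197945-34198194, plus strand): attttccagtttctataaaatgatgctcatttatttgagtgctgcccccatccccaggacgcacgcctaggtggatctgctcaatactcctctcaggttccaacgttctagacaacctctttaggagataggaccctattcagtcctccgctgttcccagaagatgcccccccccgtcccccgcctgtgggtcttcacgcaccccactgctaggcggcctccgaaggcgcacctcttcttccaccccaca
Psma1 (chr7:114276117-114276366, minus strand): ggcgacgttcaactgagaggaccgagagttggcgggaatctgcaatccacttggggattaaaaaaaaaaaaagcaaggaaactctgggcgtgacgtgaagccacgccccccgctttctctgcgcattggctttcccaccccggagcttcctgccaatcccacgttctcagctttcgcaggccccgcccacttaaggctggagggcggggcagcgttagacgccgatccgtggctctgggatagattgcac
Psmb5 (chr14:54617996-54618245, minus strand): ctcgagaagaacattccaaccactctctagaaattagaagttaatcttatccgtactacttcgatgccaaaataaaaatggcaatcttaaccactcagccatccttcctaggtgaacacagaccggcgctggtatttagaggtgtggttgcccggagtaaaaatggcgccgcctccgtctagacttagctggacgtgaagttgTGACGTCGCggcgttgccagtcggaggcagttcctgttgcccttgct
Psmb6 (chr11:70525107-70525356, plus strand): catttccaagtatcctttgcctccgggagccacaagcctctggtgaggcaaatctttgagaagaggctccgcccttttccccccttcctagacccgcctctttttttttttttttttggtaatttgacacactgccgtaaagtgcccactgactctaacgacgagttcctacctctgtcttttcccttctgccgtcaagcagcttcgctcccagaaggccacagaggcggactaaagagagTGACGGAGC
Psmb5 holds the match from 47 to 39 bases before the start, and Psmb6 from 9 to 1 bases before it.

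TGACNNNGC is the core of the antioxidant response element, to which NFE2L1 and NFE2L2 bind, and TGACG, with which the Psmb5 and Psmb6 matches begin, also begins a cAMP response element. RefSeq promoters, 250 bases before to 50 after a start, were found for 41 of the 49 genes. On either strand 6 of the 44 promoters of these genes held it (13.6%), beside 12.4% of all 32851 promoters. They belong to Psmb5, Psmb6, Psmc6, Psmd9, Psmd12 and Psme4. The core of the interferon-stimulated response element (GAAA, any 2 bases, GAAA) was found in 5 of the 44 (11.4%), beside 3.44% of all promoters. These were Psmb3, Psmd4, Psmd9, Psme1 and Psmg4, and only the Psmd9 promoter held both motifs. None of the 3 immunoproteasome promoters, 0 of 3 for each motif, matched these exact letters. A match is a description of the sequence alone.

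Ritonavir alone was set against the ethanol control. Most proteasome genes were slightly higher on the ritonavir array, and 1, the 20S alpha gene Psma1, was far lower. The median over the 47 detected members was 0.14, beside 0.00 over all detected genes, and 37 of 47 were above 0, beside 50.2% of all genes. At least 1.5-fold apart was 1 of 47, beside 24.8% of all detected genes, which split into 12.4% higher and 12.4% lower.

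Psma1 encodes an alpha subunit of the 20S core. It read 12.37 with t10,c12-CLA, 12.59 with c9,t11-CLA, 12.65 with DMSO, 11.88 with ritonavir alone, 13.22 with tenofovir and 13.23 with ethanol. All 4 arrays with ritonavir were below both without it, as for 22.6% of all detected genes, and ritonavir alone was lowest. The difference from ethanol was -1.35, or 2.55-fold lower, and 4.17% of all detected genes were at least as low in this comparison. From lowest to highest the arrays of Psma1 ran from ritonavir alone over t10,c12-CLA, c9,t11-CLA and DMSO to tenofovir and ethanol. The adipocyte markers ran in the same order but for c9,t11-CLA and DMSO, which stood the other way round, and the part of adipocyte content in Psma1 was not tested. In pooled cells, fewer cells of a type and less RNA per cell cannot be told apart.

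Psma1 has other probe sets, which are dimmer. One differed between ritonavir and ethanol by -0.36, and another by -1.45, with 6.13 on the ritonavir and 7.58 on the ethanol array. That last probe set was also low with tenofovir, at 6.43, while the brightest differed there by -0.01. In the order of genes on the chromosome Psma1 lies next to Pde3b, a phosphodiesterase gene of insulin action, a neighbour picked after its values were seen. Pde3b read 9.06 with ritonavir and 12.43 with ethanol, a difference of -3.37, and Copb1 on the other side differed by -0.46. Whether the neighbours bear on the Psma1 values was not tested.

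**Figure D1:**
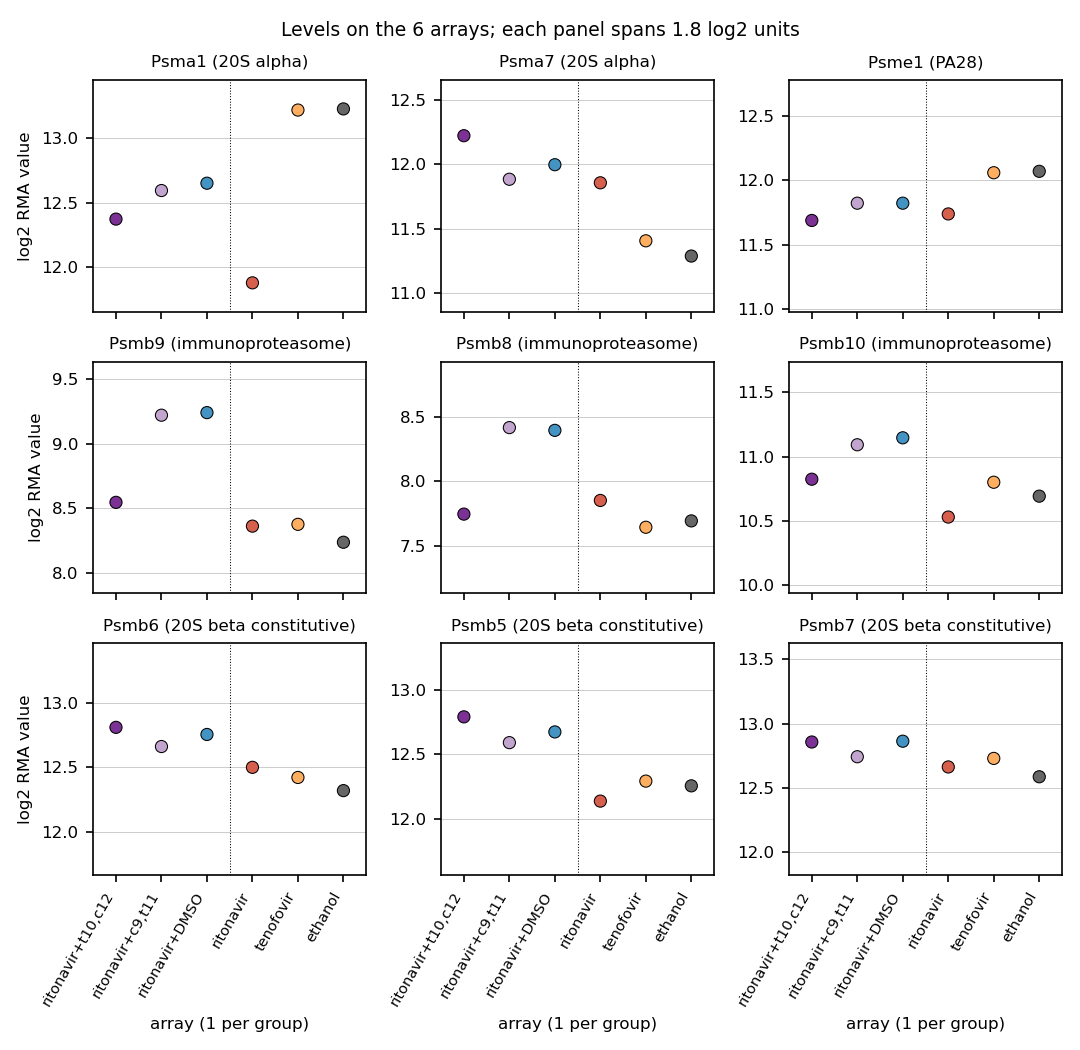
Log2 RMA values (vertical axes, each panel spanning the same range) of 9 proteasome genes on the 6 arrays (horizontal axes, 1 point per array; the dotted line parts the second experiment, left, from the first). Psma1 was lowest with ritonavir alone, at 11.88, and Psmb9 and Psmb8 were high with c9,t11-CLA and DMSO but not with t10,c12-CLA.

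The other alpha genes, which form the outer rings and the gate of the barrel, went up or down little. Psma7 stood out among them, with 12.22, 11.88 and 11.998 in the second experiment with t10,c12-CLA, c9,t11-CLA and DMSO. It read 11.86 with ritonavir, 11.41 with tenofovir and 11.29 with ethanol. Each array with ritonavir was above both without, as for 28.6% of all detected genes. Ritonavir differed from ethanol by 0.57, just short of 1.5-fold, while the second probe set of Psma7 differed by 0.64. Psma2, Psma3 and Psma4 differed by 0.24, 0.19 and 0.27, and Psma5 and Psma6 by -0.10 and -0.18. Without Psma1 the 6 detected alpha genes had a median of 0.22, and with it 0.19.

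Of the 7 constitutive beta genes 6 were higher with ritonavir, between 0.08 for Psmb7 and 0.24 for Psmb1, and the median was 0.13. The exception was Psmb5, the chymotrypsin-like subunit, at -0.12. The 6 ATPase genes of the 19S base were all higher, from 0.11 for Psmc1 to 0.43 for Psmc3, with a median of 0.27. Among 11 non-ATPase genes 8 were higher and the median was 0.07, from -0.17 for Psmd12 to 0.30 for Psmd7. Psmg1 to Psmg4, which pair up to build the alpha ring, were higher by 0.15 to 0.38. Of the 3 chaperones of the 19S base Psmd9 differed by 0.44, Psmd5 by 0.08 and Psmd10 by 0.01, with a median of 0.08. On its brightest probe set none of these genes reached 1.5-fold. Dimmer probe sets did for Psmc6, at 1.43 and 1.69, and for Psmd7, at 0.99.

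On their brightest probe sets both PA28 genes were lower with ritonavir. Psme1, an interferon-inducible subunit of the PA28 ring, read 11.69 with t10,c12-CLA, 11.82 with c9,t11-CLA, 11.82 with DMSO and 11.74 with ritonavir, and 12.06 with tenofovir and 12.07 with ethanol. The 4 arrays with ritonavir lay below both without, as for 22.6% of all detected genes, and ritonavir differed from ethanol by -0.33. Psme3, which forms a nuclear PA28 ring of its own, read 9.89 with t10,c12-CLA, 10.02 with c9,t11-CLA, 10.18 with DMSO, 9.70 with ritonavir, 10.11 with tenofovir and 10.10 with ethanol. Ritonavir differed from ethanol by -0.40, but its second probe set differed by 0.19, so its direction depends on the probe set. Psme4, which encodes the activator PA200, differed by 0.12, and Psmf1, which encodes the proteasome regulator PI31, by 0.15.

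**Figure D2:**
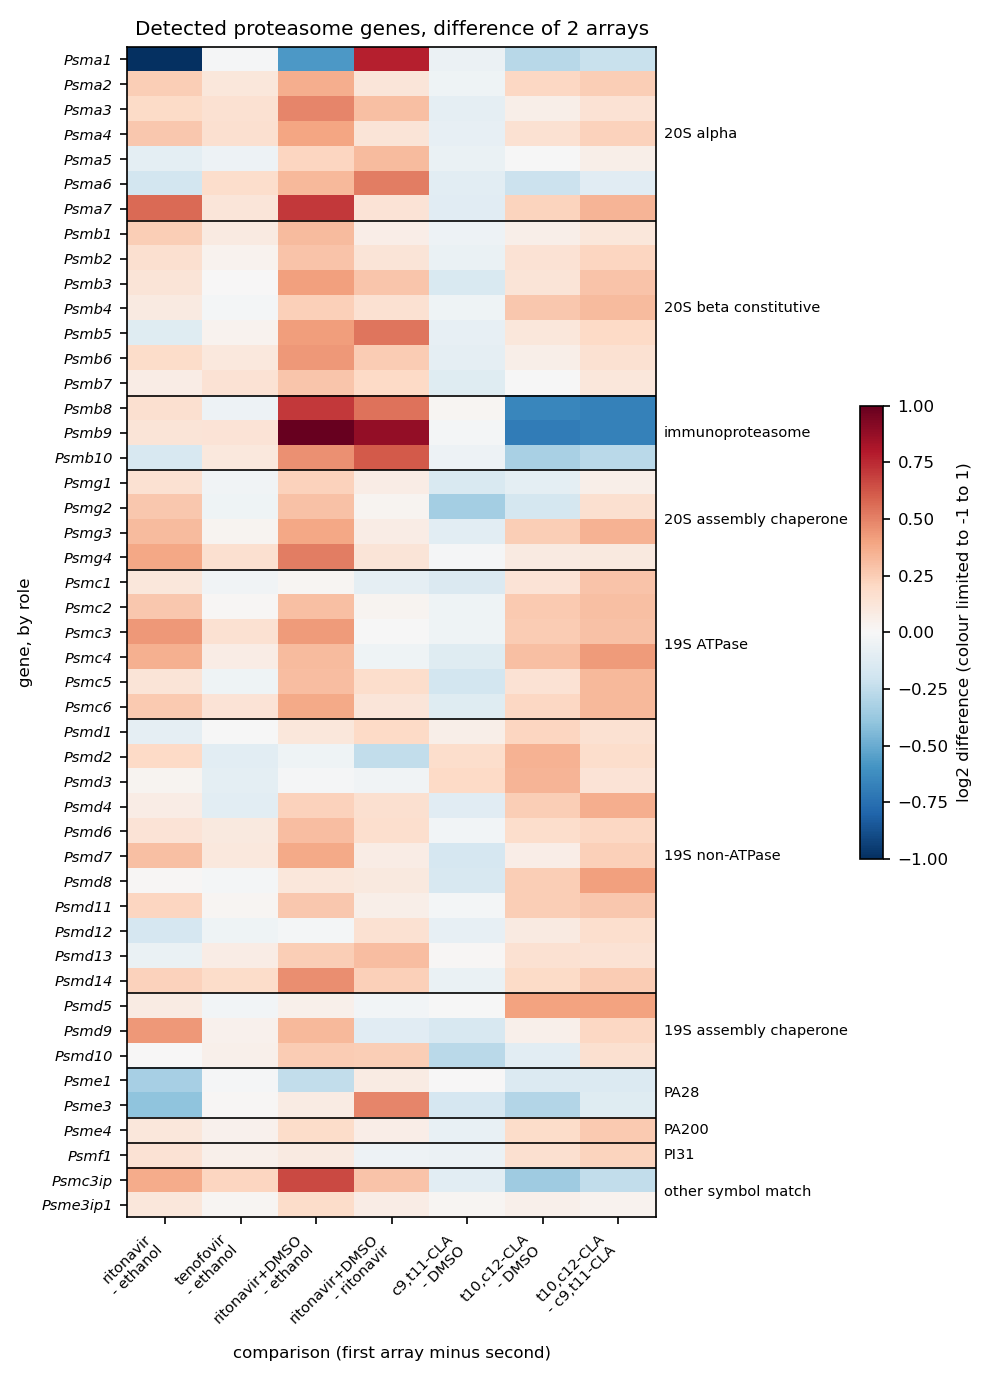
Log2 differences (colour, limited to -1 to 1) of the 47 detected members (rows, grouped by role) in 7 comparisons of 1 array with another (columns). Most rows are pale red in the ritonavir columns, Psma1 is blue there at -1.35 and -0.58, and the immunoproteasome rows turn from red with DMSO to blue with t10,c12-CLA.

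Psmc6, an ATPase of the cap, had probe sets that differed in size. Its brightest read 12.45, 12.13, 12.25 and 12.13 with t10,c12-CLA, c9,t11-CLA, DMSO and ritonavir, and 12.01 and 11.87 with tenofovir and ethanol. The second read 10.23, 9.90, 10.16 and 10.28 on those arrays with ritonavir, and 9.06 and 8.85 without. Both placed every array with ritonavir above those without, as for 28.6% of all detected genes. Yet ritonavir differed from ethanol by 0.26 on the brightest, 1.43 on the second and 1.69 on a dimmer one. Psmf1 showed a like spread, with 0.15 on its brightest and 0.75 on its second probe set. In this comparison 34 further probe sets of 22 members reached the detection level, 5 had the opposite sign to the brightest, and 6 lay at least 1.5-fold from it, those of Psma1, Psmc6, Psmd7, Psme3 and Psmf1. Of the same 34, 12 had the opposite sign with tenofovir, 6 with ritonavir and DMSO against ethanol, and 12 with ritonavir and DMSO against ritonavir. The count was 11 with c9,t11-CLA against DMSO, 7 with t10,c12-CLA against DMSO and 6 with t10,c12-CLA against c9,t11-CLA. The deposited table does not say which transcripts each probe set reads.

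**Figure D3:**
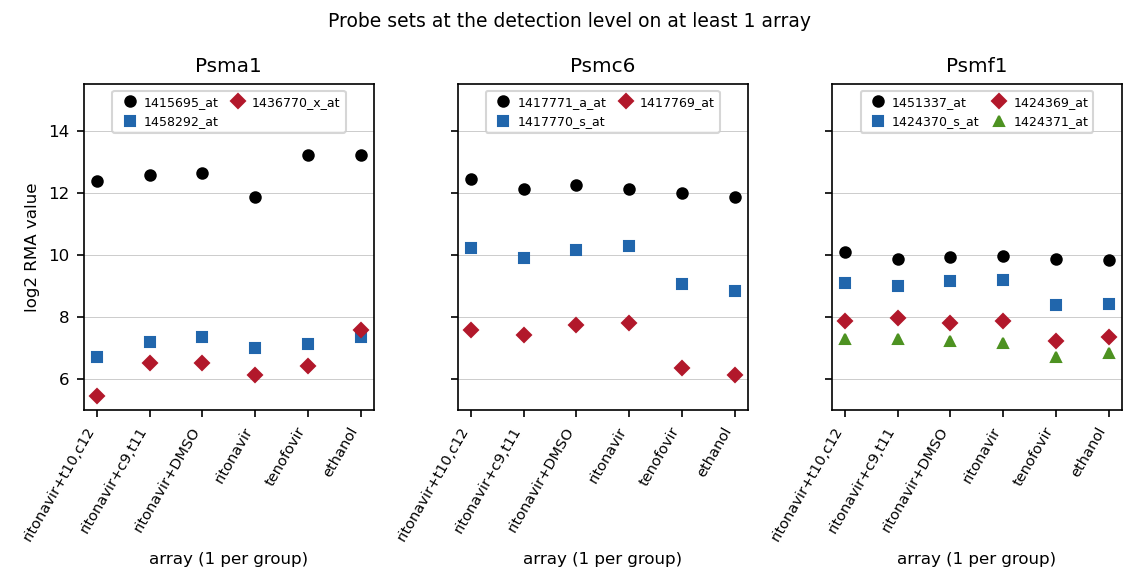
Log2 RMA values (vertical axis) on the 6 arrays (horizontal axis, 1 per group) for the probe sets of Psma1, Psmc6 and Psmf1 that reached the detection level (symbols by probe set). For Psmc6 the dimmer probe sets part the arrays with ritonavir from those without, at 9.90 to 10.28 against 8.85 and 9.06 for the second.

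Tenofovir was compared with the same ethanol array to ask whether another class of antiretroviral acts on these cells. The proteasome genes read nearly the same on both arrays. Differences lay between -0.11 for Psmd2 and 0.21 for Psmc3ip, a recombination factor. Psmc3ip read 9.82 with t10,c12-CLA, 10.07 with c9,t11-CLA, 10.18 with DMSO, 9.89 with ritonavir, 9.73 with tenofovir and 9.52 with ethanol. The median was 0.04, beside -0.01 over all genes, 31 of 47 were above 0, beside 46.3%, and 0 of 47 reached 1.5-fold, beside 0.0969% of all genes (0.0565% higher and 0.0404% lower).

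Ritonavir with DMSO, from the second experiment, was set against ethanol from the first, and the experiment and vehicle differ along with the drug. The proteasome genes were higher here than with ritonavir alone, and both values use the same ethanol array. The median was 0.30, beside 0.02 over all genes, and 42 of 47 were above 0, beside 52% of all genes. At least 1.5-fold apart were 4 of 47, beside 14.1% of all genes. All 4 were higher, beside 6.45% of all genes, and 0 of 47 were that much lower, beside 7.69%. Psma1 was the lowest at -0.58, just short of 1.5-fold.

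The 4 genes were Psmb9 (1.01), Psma7 (0.71), Psmb8 (0.70) and Psmc3ip (0.66), and without Psmc3ip and Psme3ip1 the count was 3 of 45. All 7 constitutive beta genes were higher, within a narrow range of 0.24 to 0.44 and with a median of 0.31. The 6 alpha genes other than Psma1 ranged from 0.22 to 0.71, and the ATPase genes from 0.02 for Psmc1 to 0.43 for Psmc3. Among the non-ATPase genes Psmd14, which encodes the deubiquitinase of the cap, was highest at 0.47, and Psmd2, a scaffold of the base, was lowest at -0.04. Psmg4 differed by 0.51 and Psme1 by -0.25.

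The immunoproteasome genes stood out in the second experiment. Psmb9, the interferon-inducible counterpart of Psmb6, read 8.54 with t10,c12-CLA, 9.22 with c9,t11-CLA, 9.24 with DMSO, 8.36 with ritonavir, 8.37 with tenofovir and 8.24 with ethanol. Psmb8, the counterpart of Psmb5, read 7.75, 8.42, 8.40, 7.85, 7.64 and 7.69 on the same arrays. Psmb10, the counterpart of Psmb7, read 10.82, 11.09, 11.15, 10.53, 10.80 and 10.69. For all 3 genes the c9,t11-CLA and DMSO arrays were the highest of the 6, and with t10,c12-CLA Psmb8 lay within the range of the first experiment and Psmb9 just above it.

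With ritonavir alone Psmb9, Psmb8 and Psmb10 differed from ethanol by 0.13, 0.16 and -0.16. Ritonavir with DMSO differed from ritonavir alone by 0.88 for Psmb9, 0.54 for Psmb8 and 0.62 for Psmb10, although both held ritonavir at 20 µM. Over all members this comparison had a median of 0.13, beside 0.01 over all genes, and 39 of 47 were above 0, beside 50.9%. Psmb9, Psma1 (0.77) and Psmb10 were at least 1.5-fold apart, 3 of 47 beside 14.6% of all genes. All 3 were higher, beside 8.43%. No member, 0 of 47, was that much lower, beside 6.18%. The adipocyte marker list had a median of 2.45 and the fibroblast list one of -1.89 between these arrays, and their part in these values was not tested. Cd74, an invariant chain gene on the macrophage and leukocyte list, read 8.31 with t10,c12-CLA, 8.76 with c9,t11-CLA, 8.80 with DMSO and 8.88 with ritonavir, and 7.79 with tenofovir and 7.80 with ethanol. Cd68, a lysosomal gene on the same list, read 10.10, 8.11, 8.43, 8.71, 6.75 and 6.87 on these arrays. Csf1r of the same list stayed between 7.43 and 7.66 and Lyz2 between 6.36 and 6.76. The part of this list was not tested either.

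The constitutive counterparts were measured on the same arrays. Psmb6, the caspase-like subunit, read 12.81 with t10,c12-CLA, 12.66 with c9,t11-CLA, 12.75 with DMSO, 12.50 with ritonavir, 12.42 with tenofovir and 12.32 with ethanol. Psmb5 read 12.79, 12.59, 12.67, 12.14, 12.29 and 12.26, and Psmb7, the trypsin-like subunit, 12.86, 12.74, 12.86, 12.66, 12.73 and 12.59. Their arrays with t10,c12-CLA were at or near the top, where those of Psmb9 and Psmb8 were low. With t10,c12-CLA against DMSO, the difference of Psmb9 was 0.75 below that of Psmb6 (-0.70 and 0.06), that of Psmb8 was 0.77 below that of Psmb5 (-0.65 and 0.12), and that of Psmb10 was 0.32 below that of Psmb7 (-0.32 and -0.01). The pairs were not parted this way in every comparison. With ritonavir and DMSO against ritonavir Psmb8 and Psmb5 both differed by 0.54, while Psmb9 exceeded Psmb6 by 0.63 and Psmb10 exceeded Psmb7 by 0.42. With c9,t11-CLA against DMSO the constitutive genes Psmb6, Psmb5 and Psmb7 differed by -0.09, -0.08 and -0.12, farther from 0 than Psmb9, Psmb8 and Psmb10 at -0.02, 0.02 and -0.05.

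**Figure D4:**
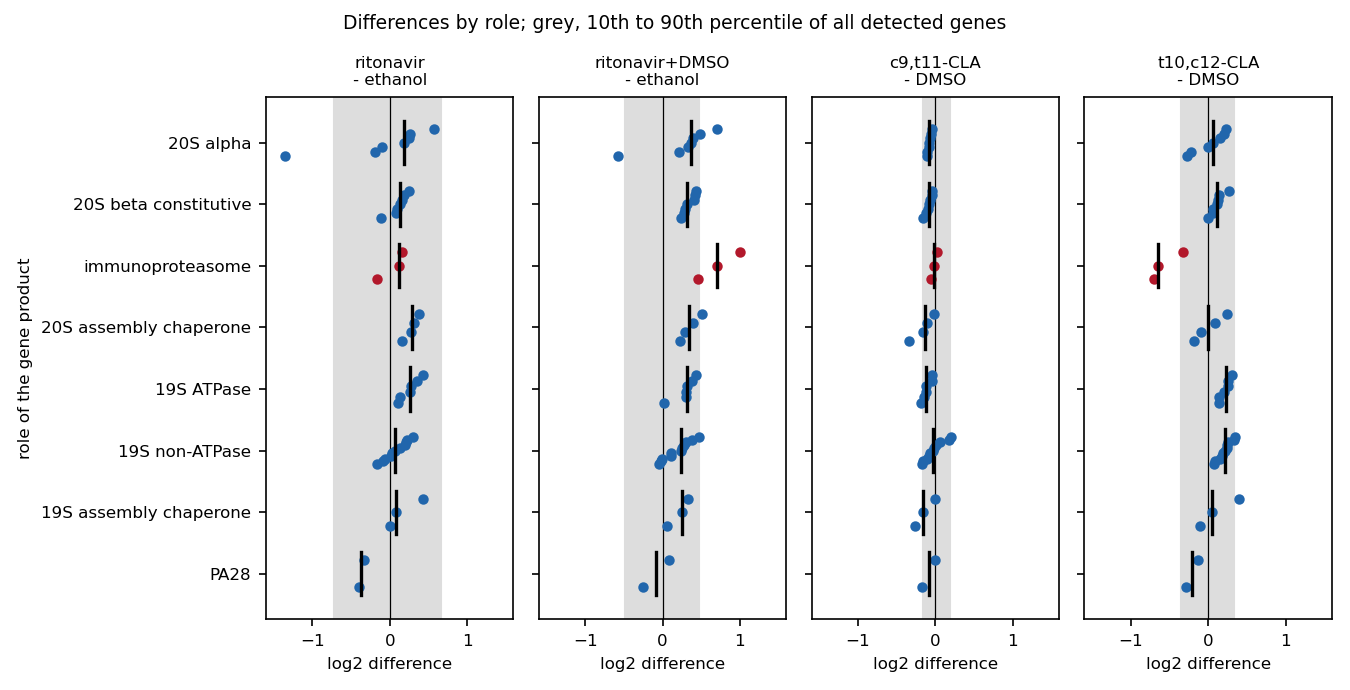
Log2 differences (horizontal axes) of detected proteasome genes (points) by role (rows; black bars are medians) in 4 comparisons; the grey band spans the 10th to the 90th percentile of all detected genes. The immunoproteasome genes (dark red) have medians of 0.13, 0.70, -0.02 and -0.65 from left to right, and the 19S ATPase genes 0.27, 0.31, -0.12 and 0.23.

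The second experiment asked how CLA isomers act in ritonavir-treated cells, and both isomers were set against the same DMSO array. With c9,t11-CLA most proteasome genes were slightly lower than with DMSO. The median was -0.08, beside 0.01 over all genes, and 40 of 47 were below 0, beside 47.6% of all genes. None of the 47 reached 1.5-fold (0 of 47, beside 0.17% of all genes, 0.0969% higher and 0.0727% lower). All 7 alpha genes were lower, between -0.11 and -0.04, as were all 7 constitutive beta genes, between -0.15 and -0.05, and all 6 ATPase genes, between -0.18 and -0.04. Psmg2, a chaperone of alpha ring assembly, was lowest at -0.34, and Psmd3 and Psmd2, subunits of the cap, were highest at 0.20 and 0.17. Of 34 further probe sets of the members, 11 had the opposite sign to the brightest in this comparison. Whether differences of this size exceed the spread between repeated arrays cannot be told from 1 array.

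With t10,c12-CLA the constitutive genes were slightly higher than with DMSO and the immunoproteasome genes lower. The median was 0.14, beside 0.02 over all genes, and 34 of 47 were above 0, beside 52.8% of all genes. Psmb9 (-0.70) and Psmb8 (-0.65) were at least 1.5-fold apart, 2 of 47 beside 7.07% of all genes. Both were lower, beside 3.96%, and 0 of 47 were that much higher, beside 3.11%. Of all detected genes 2.81% were at least as low as Psmb9 and 3.26% at least as low as Psmb8. Between the same arrays the adipocyte marker list had a median of -1.20, with 8 of 8 lower, and the fibroblast list one of 0.46, with 6 of 6 higher. Cd68 differed by 1.67 and Cd74 by -0.49, and the part of these markers in the proteasome values was not tested.

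On their brightest probe sets all 17 genes of the 19S cap proper were higher with t10,c12-CLA. The 6 ATPase genes differed by 0.14 to 0.30 and the 11 non-ATPase genes by 0.07 for Psmd7 to 0.35 for Psmd2. A further probe set each of Psmd6, Psmc6 and Psmc4 was lower, by -0.27, -0.16 and -0.05. Over all members 7 of 34 further probe sets had the opposite sign to the brightest. Psmd5, a chaperone of the cap's base, was highest of the members at 0.40, with 10.82 on the t10,c12-CLA array and 10.33 to 10.44 on the 5 others. Of the alpha genes 4 of 7 were higher, with Psma7 at 0.23 and Psma1 lowest at -0.28. Of the constitutive beta genes 6 of 7 were higher, Psmb4 most at 0.27. Psme1 and Psme3 differed by -0.13 and -0.29.

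The isomers were given at the same dose for the same time, and 1 pair was compared, without a p-value. With t10,c12-CLA against c9,t11-CLA the median was 0.20, beside 0.01 over all genes, and 39 of 47 were above 0, beside 51.8%. Psmc4 and Psmd8 of the cap differed most upward, by 0.42 and 0.41, while Psmb9 and Psmb8 differed by -0.68 and -0.67. The last pair was at least 1.5-fold apart, 2 of 47 beside 8.09% of all genes. Both were lower, beside 4.96%, and 0 of 47 were that much higher, beside 3.13%. No interval of these differences can be given with 1 array per isomer.

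At 2-fold 1 of 47 was apart for ritonavir against ethanol (Psma1, beside 10.9% of all genes) and 1 for ritonavir with DMSO against ethanol (Psmb9, beside 4.51%). The count was 0 of 47 for tenofovir (beside 0%), ritonavir with DMSO against ritonavir (4.91%), c9,t11-CLA (0.00807%), t10,c12-CLA against DMSO (1.83%) and t10,c12-CLA against c9,t11-CLA (2.48%). At a difference of 0.32 in either direction the counts were 9 for ritonavir (beside 46.7%), 0 for tenofovir (2.33%), 20 for ritonavir with DMSO against ethanol (35.3%) and 7 against ritonavir (34.2%). They were 1 for c9,t11-CLA (3.69%), 6 for t10,c12-CLA against DMSO (22.4%) and 10 for t10,c12-CLA against c9,t11-CLA (22.7%).

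Across both experiments 28 of 47 members read higher on all 4 arrays with ritonavir than on both without, beside 28.6% of all detected genes, and 2, Psma1 and Psme1, read lower on all 4, beside 22.6%. The other 17 overlapped, among them Psmb5, Psmb7, Psmb9 and Psmb10. The 28 held 5 of 6 ATPase, 5 of 7 constitutive beta, 4 of 7 alpha and 5 of 11 non-ATPase genes. These 4 arrays also differ in CLA, vehicle and experiment.

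The t10,c12-CLA array was the highest of the 6 for 33 of 47 members, beside 18.5% of all detected genes. The DMSO array was highest for 10 members (beside 13.2% of all genes), c9,t11-CLA for 1 (10.4%), ritonavir alone for 1 (25%), tenofovir for 0 (14%) and ethanol for 2 (19%). The ethanol array was the lowest for 25 members, beside 18.7% of all genes. The lowest value fell on ritonavir alone for 9 members (27.5%), on tenofovir for 9 (20.5%), on c9,t11-CLA for 3 (7.61%), on t10,c12-CLA for 1 (12.3%) and on DMSO for 0 (13.5%).

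Genes that work beside the proteasome were looked at as lists. Of 10 partners outside the symbol rule 9 had a detected probe set, and 0 of 9 reached 1.5-fold with ritonavir against ethanol, beside 24.8% of all genes. The count was 0 of 9 in the 6 other comparisons too, where at most 14.6% of all genes reached it, so that few calls or none would be usual in so short a list. With ritonavir against ethanol their median was -0.02, from -0.56 for Uchl5, a deubiquitinase of the cap, to 0.22 for Usp14, another. Pomp, the maturation factor of the 20S core, differed by -0.04 with ritonavir and by 0.29 with ritonavir and DMSO. Of 12 ubiquitin and shuttle genes 6 were detected, and 1 was at least 1.5-fold higher than with ethanol, with ritonavir (beside 12.4% of all genes) and with ritonavir and DMSO (beside 6.45%). It was Sqstm1, which encodes the autophagy receptor p62. Sqstm1 read 13.51 with t10,c12-CLA, 13.12 with c9,t11-CLA, 13.03 with DMSO and 13.04 with ritonavir, and 12.26 with tenofovir and 12.32 with ethanol. Its arrays with ritonavir were all above both without, as were those of 28.6% of all detected genes.

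The route to NFE2L1, a factor known to raise proteasome genes when the proteasome is inhibited, had 8 of 9 genes detected and a median of -0.03 with ritonavir against ethanol. Nfe2l1 differed by 0.39 there and by 0.43 with ritonavir and DMSO, and by -0.27 with t10,c12-CLA against DMSO. Ngly1, the enzyme that removes sugar chains from NFE2L1, was the list's gene at least 1.5-fold lower with ritonavir, at -0.68, 1 of 8 beside 12.4% of all genes. Zfand2a, an arsenite-inducible proteasome partner, was highest of the list with t10,c12-CLA against DMSO, at 0.52.

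Genes of antigen presentation and interferon response were read beside Psmb8 and Psmb9. All 10 listed genes of MHC class I presentation were detected, and with ritonavir and DMSO against ethanol 1 of them was at least 1.5-fold higher, the class I gene H2-D1 at 0.65 (beside 6.45% of all genes), and 0 lower (beside 7.69%). H2-K1 was 0.80 higher with ritonavir and DMSO than with ritonavir alone, and since class I genes are close copies of each other, their probe sets may read more than 1 of them. The peptide transporter gene Tap1, which lies beside Psmb9 on the chromosome, differed by 0.45 with ritonavir and DMSO against ethanol and by -0.09 with t10,c12-CLA against DMSO. In that last comparison 0 of 10 reached 1.5-fold, beside 7.07% of all genes, a share that leaves under 1 gene of 10. There 9 of 10 were below 0, beside 47.1% of all genes, with a median of -0.07. The 10 genes ranged from -0.31 for H2-K1 to 0.34 for the chaperone gene Pdia3. Of 11 interferon factors 10 were detected. With t10,c12-CLA against DMSO 6 of 10 were above 0, near the 52.8% of all genes. The median of this list was 0.08, and 0 of 10 reached 1.5-fold, beside 7.07% of all genes. Irf7, Stat2 and Irf9 differed there by 0.45, 0.27 and 0.24, and Ifngr1 by -0.47. Nlrc5, the activator of MHC class I genes, read 8.09 with t10,c12-CLA, 8.63 with c9,t11-CLA, 8.51 with DMSO, 7.39 with ritonavir, 7.75 with tenofovir and 7.75 with ethanol. It was highest on the pair of arrays where Psmb9 was highest, with differences of 0.76 for ritonavir and DMSO against ethanol and -0.42 for t10,c12-CLA against DMSO, and of 1.12 for ritonavir and DMSO against ritonavir. Irf1 stayed between 10.38 and 10.57 on all 6 arrays, and Ifngr1, a receptor subunit for interferon gamma, differed by -1.38 with ritonavir against ethanol, by -0.60 with ritonavir and DMSO against ethanol, by 0.78 with ritonavir and DMSO against ritonavir, and by -0.72 with t10,c12-CLA against c9,t11-CLA. The kinase gene Jak1 and the interferon factor gene Irf9 were 0.78 and 0.65 higher with ritonavir than with ethanol, 2 of 10 beside 12.4% of all genes.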

How the data were processed

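RNA pooled from 4 experiments was measured on 1 array for each of 6 groups, per the labels' protocols. The authors deposited log2 values of 45101 probe sets, made with RMA in Affymetrix Expression Console per the submitters' processing notes. Neither a version nor settings were given in the sources used here. It equalises the arrays' distributions, so a shift shared by most genes is removed, and high values can be compressed. Probe sets were named from the platform annotation with symbols updated by gene identifier: 34958 had 1 symbol, 932 several (not used) and 9211 were not listed. For each gene the brightest probe set on average was kept (49 members had 103 probe sets, and 22 had 1). Differences between arrays were computed for 7 comparisons, with genes at least 1.5-fold apart counted. There are no replicates, so nothing was tested, and the number of arrays limits precision. Promoter motifs were searched in RefSeq sequences. Of 75 listed related genes and markers 64 had a probe set of their own. Members, lists and named genes (all past 1.5-fold, the catalytic and PA28 genes, and the extremes of each role and list) were chosen with earlier results of these data known. The counting step was tested on simulated data. Python 3.11.15 with numpy 2.4.6, pandas 2.3.3, statsmodels 0.14.6 and matplotlib 3.10.9 was used.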

Additional observations from a re-analysis of the deposited data

How the results depend on the processing

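A median counted as moved if it shifted by more than 0.1, and under the alternatives none of the 7 medians did. This limit is larger than the medians for tenofovir and c9,t11-CLA, so for them it decides little. The medians ranged from 0.10 to 0.22 for ritonavir against ethanol, 0.02 to 0.04 for tenofovir and 0.26 to 0.30 for ritonavir with DMSO against ethanol. They ranged from 0.09 to 0.13 for ritonavir with DMSO against ritonavir and from -0.08 to -0.05 for c9,t11-CLA. The range was 0.08 to 0.16 for t10,c12-CLA and 0.15 to 0.20 between the isomers, and no median changed sign. At the stricter detection level the median over all genes was 0.06 for ritonavir against ethanol, beside 0.14 over members. For ritonavir with DMSO against ethanol it was 0.05, beside 0.30 over members. The all-gene median there was -0.01 for tenofovir and 0.01 for ritonavir with DMSO against ritonavir. Counts of members 1.5-fold apart are small and depend on the probe set. For ritonavir against ethanol the count was 1 of 47, beside 24.8% of all genes. With the mean of a gene's probe sets it became 3 of 46 (Psma1, Psma7 and Psmc6), beside 23.2%. Without probe sets whose names end in _a_at, _s_at or _x_at it was 4 of 40 (Psma3 added), beside 25.4%. Psma3 was then read from a dim probe set, at 6.58 with ritonavir and 5.87 with ethanol. With quantile normalization again the count was 2 of 47, beside 24.7%. With the mean of both ritonavir arrays it was 2 of 47, beside 17.6%. Psma7 was added each time. With the mean of probe sets Psma1 alone passed for tenofovir, 1 of 46 beside 0.0623% of all genes, in place of 0 of 47. Under that setting Psma1 fell short between ritonavir with DMSO and ritonavir, at 0.52. For t10,c12-CLA against DMSO and against c9,t11-CLA the 2 became 1, Psmb9, without the suffixed probe sets and at the stricter level of 8.77. Both settings leave out the brightest probe set of Psmb8, by its suffix and by its level. In the main setting 7.07% and 8.09% of all genes were apart in these comparisons. With the mean of probe sets the count stayed at 2 but held Psma1 and Psmb9, since Psmb8 averaged with its dim second probe set was not detected. Under the same 3 settings Psmb8 also left the genes apart between ritonavir with DMSO and ethanol. There 6 of 46 members were apart with the mean, beside 12.2% of all genes. Without the suffixed probe sets 5 of 40 were apart, beside 14.2%, and at the stricter level 3 of 46, beside 16.1%. At 2-fold the counts were 1 for ritonavir with DMSO against ethanol, and 0 against ritonavir and for t10,c12-CLA in both comparisons. At a threshold of 0.32 on the log2 scale they were 9, 20, 7, 1, 6 and 10, in the order ritonavir, ritonavir with DMSO against ethanol and against ritonavir, c9,t11-CLA, t10,c12-CLA against DMSO and against c9,t11-CLA. Why counts moved with the probe set was not tested. The difference of Psma1 between ritonavir and ethanol ranged from -1.38 to -0.96. No paired analysis was possible because each group has 1 array.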
